A study of Mus musculus with 10 samples.

Results

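Hypoxia response genes outside glycolysis were followed in tumour-associated macrophages from mice given a glutamine antagonist. The 10 genes are Hif1a, Vegfa, Bnip3, Egln1, Egln3, Adm, Ndrg1, Ankrd37, Higd1a and Kdm3a, chosen by name. Each matched 1 of the 46956 loci with a symbol in every sample table, each of these loci lists that symbol alone, and all 10 had enough fragments to be tested. BALB/cJ mice received 100000 cells of 4T1, a mouse mammary carcinoma line, in the mammary fat pad. The vehicle group was given PBS, and the other group JHU083, a prodrug of the glutamine analogue 6-diazo-5-oxo-L-norleucine, at 1 mg/kg on days 7 to 13. Tumours of both groups were harvested on day 14, and live cells were sorted as CD45+ CD11b+ F4/80+ and negative for Ly6G, Ly6C and CD8, giving 5 samples per group. The labels give neither the age of the mice nor whether a sample came from 1 mouse, so p-values measure the spread between these samples, which may be technical.

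Cells sense oxygen through prolyl hydroxylases, which mark the alpha subunit of hypoxia-inducible factor (HIF) for destruction while oxygen is present. When oxygen falls, the alpha subunit escapes, pairs with Arnt and switches on genes for angiogenesis, mitochondrial adaptation and its own negative feedback. This control acts mainly on the protein, so the mRNA of Hif1a is not a measure of HIF activity. Macrophages in poorly perfused parts of tumours are known for a high output of such genes, Vegfa among them.

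The genes moved in both directions. At an adjusted p under 0.05 by edgeR's quasi-likelihood test, Hif1a and Kdm3a rose in JHU083, Ndrg1, Ankrd37 and Higd1a fell, and Vegfa, Adm, Bnip3, Egln1 and Egln3 were not called. So 2 of 10 were called higher, where 18.4% of the 12500 tested loci were, and 3 of 10 lower, where 18.3% were. The largest changes were small, a fold of 0.709 for Higd1a and 1.36 for Kdm3a. The log2 fold change, JHU083 minus vehicle, was negative for 8 of the 10 genes and had a median of -0.24, against 0.01 over all tested loci, of which 48.9% were negative. The median absolute log2 fold change was 0.32 for the 10 genes and 0.26 over all tested loci. Only Ndrg1 and Higd1a had groups that did not overlap, with every JHU083 sample below every vehicle sample, which held for 11.1% of tested loci; no gene had the reverse separation, found for 11.2%. With library-size scaling in place of TMM 1 of 10 genes was called higher, where 12.5% of loci were, and 5 of 10 lower, where 25.1% were, and 33.2% of all calls were higher against 50.0% with TMM.

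**Figure D1:**
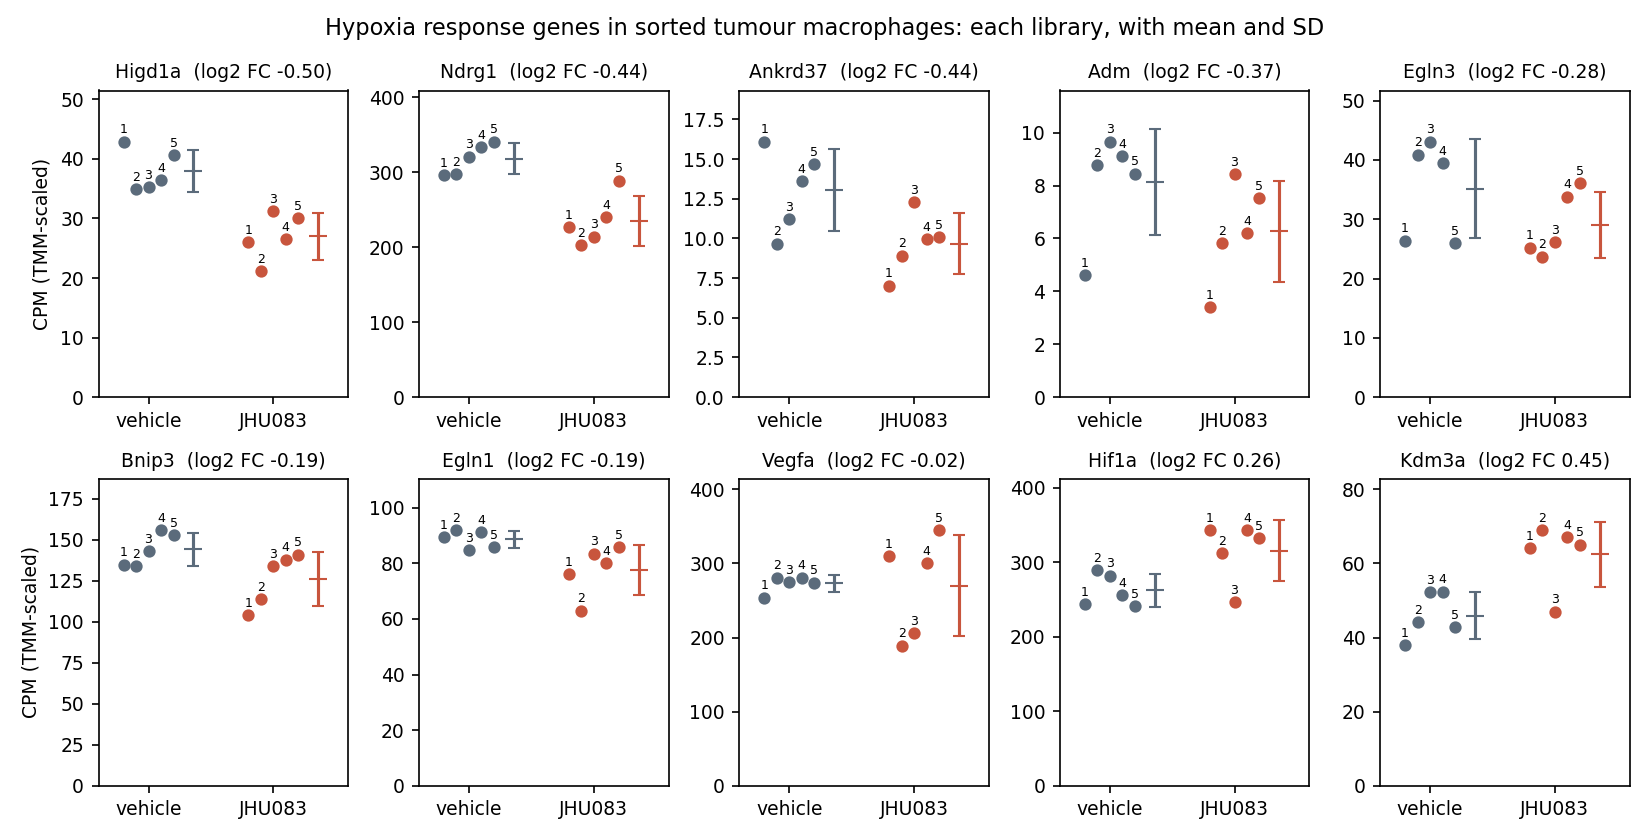
Level of each of the 10 genes in CPM (fragments scaled to a common library size by TMM) in the 5 vehicle (grey) and 5 JHU083 (red) libraries, numbered by replicate, with the mean and SD beside them; panels run from the largest decrease to the largest increase. Ndrg1 and Higd1a separate the groups, Vegfa spreads widely in JHU083 only, and JHU083 replicate 3 lies apart from its group for Hif1a and Kdm3a.

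The vehicle libraries held 11147723 to 14575720 fragments (mean 12744705) and the JHU083 libraries 13638169 to 15740488 (mean 14617310), and Adm, the gene with the fewest fragments, had 50 to 128 per library. Mitochondrial transcripts took 1.53% to 2.09% of fragments in vehicle and 2.14% to 2.44% in JHU083, without overlap, and the part of this difference in the results was not tested. Rn18s-rs5 and Gm42418, which hold ribosomal RNA sequence, were listed at 0 in 3 vehicle and 2 JHU083 libraries and took 2.87% to 5.59% of fragments in the others. JHU083 replicate 3 lay apart from its group for Hif1a and Kdm3a, and their fold changes without it are given with them. That sample also had the highest macrophage sum and the lowest epithelial and fibroblast sums. The macrophage markers were abundant in both groups, with a summed CPM over 11 genes of 31400 to 41600 in vehicle and 48900 to 68800 in JHU083. Apoe made up most of each sum, with a mean of 21500 CPM in vehicle and 38200 CPM in JHU083. Apoe, Adgre1, Csf1r and Mertk were higher, and the other 7 of the 11, Cd68, Itgam and C1qa among them, were not called. Transcripts of several other cell types were lower in JHU083: all 10 tumour epithelial markers were lower, with a summed CPM of 311 to 685 in vehicle and 107 to 226 in JHU083, and 7 of 10 fibroblast markers were lower, with 118 to 250 and 35.7 to 137. Endothelial markers summed to 183 to 269 and 103 to 146, with 1 of 6 tested lower (Pecam1, the largest part of the sum) and 1 higher (Tie1). Of 6 tested neutrophil markers 2 were lower (S100a8 and S100a9) and 1 higher (Csf3r, the largest part of the sum). The sums were 98.5 to 111 and 98.6 to 151, and Ly6g and Camp had at most 3 fragments in every library. Of 4 tested eosinophil markers 2 were higher, Siglecf and Ear2, and Ear2 was on average the largest part of the sum. The sums were 7.67 to 13.7 and 20.8 to 41.5, and Ear1 and Ear6 had at most 3 fragments in every library. Of 10 lymphocyte markers Cd4 alone was tested; it was higher and made up most of the sums of 14.4 to 18.1 and 27.1 to 43.4, while the other 9, Cd3e and Cd8a among them, had a mean under 1 CPM in both groups. Of 6 tested dendritic markers 1 was higher (Cd209a) and 1 lower (Fscn1, on average the largest part of the sum). The sums were 28.8 to 58.2 and 23.8 to 42.4. Erythroid markers summed to 1.36 to 2.35 in vehicle and at most 0.136 in JHU083, and none was tested. Their part in the changes below was not tested, and in sorted bulk samples fewer cells of a type and less RNA per cell cannot be told apart.

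HIF binds a short core, which was searched as ACGTG and GCGTG on both strands in the 250 bases before each start in RefSeq (GRCm38.p6), counting overlapping matches. RefSeq sequences were found for 9 of the 10 genes, not for Ndrg1. The windows of Hif1a, which rose, of Ankrd37, which fell, and of Bnip3, which has the most matches, are shown 5′ to 3′ on the gene's strand, with core matches in capitals (CACGT and CACGC are the cores on the other strand). Bases that GENCODE M21 places in an untranslated region are not shown, which removed the last 17 of Ankrd37.

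Hif1a, chr12:73907617-73907866, plus strand: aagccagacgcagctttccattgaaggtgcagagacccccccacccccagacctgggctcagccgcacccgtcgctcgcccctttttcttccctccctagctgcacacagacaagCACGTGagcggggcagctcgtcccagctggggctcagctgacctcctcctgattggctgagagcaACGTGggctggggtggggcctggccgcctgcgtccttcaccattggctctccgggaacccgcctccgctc

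Ankrd37, chr8:45999868-46000100, minus strand: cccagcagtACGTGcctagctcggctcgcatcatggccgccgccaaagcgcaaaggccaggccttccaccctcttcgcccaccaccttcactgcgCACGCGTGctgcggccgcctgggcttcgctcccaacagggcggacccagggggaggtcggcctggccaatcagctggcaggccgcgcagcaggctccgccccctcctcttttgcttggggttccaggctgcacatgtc

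Bnip3, chr7:138909507-138909756, minus strand: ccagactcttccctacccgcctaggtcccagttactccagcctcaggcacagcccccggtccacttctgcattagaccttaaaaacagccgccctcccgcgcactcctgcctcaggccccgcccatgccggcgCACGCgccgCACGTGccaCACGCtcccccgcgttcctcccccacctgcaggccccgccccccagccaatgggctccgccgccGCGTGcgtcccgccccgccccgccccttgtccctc

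Genes changed in either direction carried the core. Hif1a has a palindromic CACGTG, matched on both strands, and a further ACGTG that begins 70 bases before the start. Ankrd37 has 4 matches, 2 of which overlap as CACGCGTG. The last, an ACGTG 6 bases before the RefSeq start, lies in the part not shown, within untranslated and coding sequence in GENCODE M21. Bnip3 has 5, its CACGTG counted on both strands. Kdm3a has 1 GCGTG that begins 27 bases before the first of its 3 starts, within 73 bases annotated as untranslated region, and Higd1a has 2 overlapping GCGTG in a window that GENCODE M21 places in an untranslated region over all 250 bases. All 9 genes have a match in at least 1 window, and 6 of the 9 have ACGTG, but the matches of Vegfa lie in the window of its second start, inside the gene and within coding sequence in GENCODE M21. The windows shown for Hif1a and Ankrd37 also lie inside the GENCODE M21 spans of these genes. Leaving out matches in a gene's own untranslated or coding sequence, 6 of the 9 genes have one. Of the 27025 genes with such RefSeq windows, 41.5% have either core and 18.5% have ACGTG, with matches in untranslated or coding sequence not left out. Windows rich in CpG held the core more often: those of the 9 genes had a median of 16.5 CpG against 6.0 over 32851 windows, and 67.9% of windows with at least 15 CpG held either core. A match is a description of the letters, not a binding site.

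Levels per length were compared as the authors' FPKM. In vehicle, Bnip3, a mitophagy receptor of the outer mitochondrial membrane, had the highest level at 125 ± 4.18 FPKM (SD, n = 5), followed by Ndrg1 at 114 ± 6.39 and Vegfa at 106 ± 3.89. The ranges of neighbours in this order overlapped. Hif1a stood below them at 54.7 ± 4.23, clear of both neighbours. Egln1 at 24.1 ± 0.864, Higd1a at 21.0 ± 1.91, Ankrd37 at 17.2 ± 3.32, Egln3 at 13.2 ± 3.16 and Kdm3a at 12.5 ± 2.17 formed a chain in which each range overlapped the next. Adm was lowest at 6.33 ± 1.57. In JHU083, Ndrg1 at 84.5 ± 12.3 moved behind Vegfa at 104 ± 25.3, and Kdm3a at 15.7 ± 2.71 (range 11.3 to 18.1) moved ahead of Higd1a (11.8 to 17.2), but these ranges overlapped too.

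**Figure D2:**
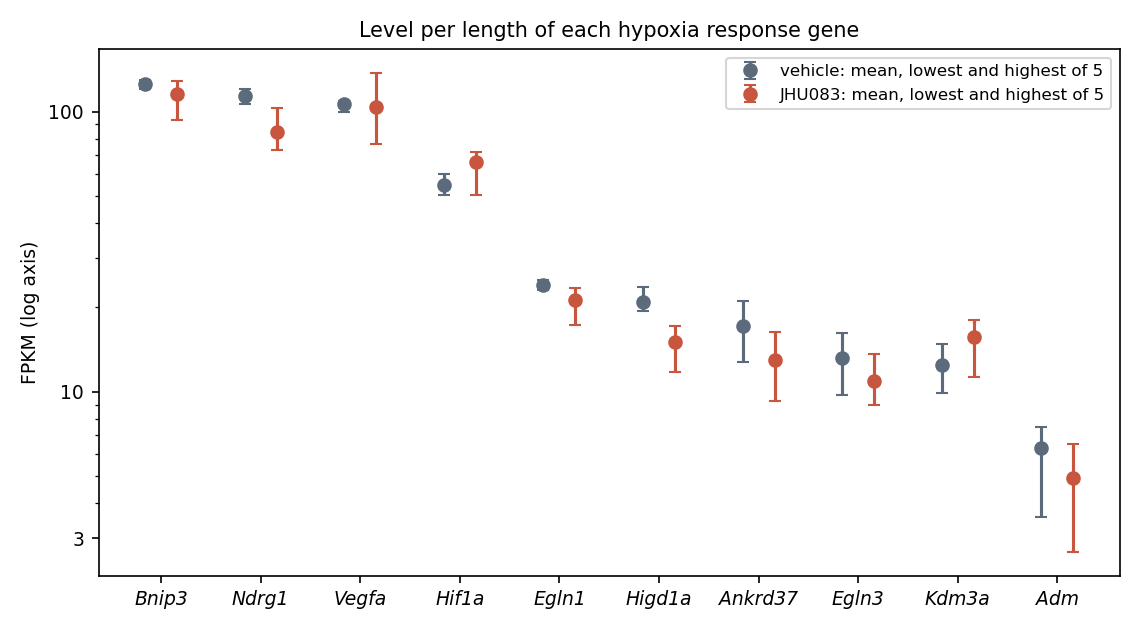
FPKM of each gene on a log axis, with the mean (point) and the lowest and highest of 5 libraries (bars) in vehicle (grey) and JHU083 (red), ordered by the vehicle mean. Bnip3, Ndrg1 and Vegfa lie near 100 FPKM in vehicle, and Adm lies lowest at 6.33.

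Among HIF and its sensors, the transcript of Hif1a rose modestly. Hif1a (XLOC_008055, chromosome 12, 73901375 to 73947530, plus strand, GRCm38 in GENCODE M21) encodes the oxygen-regulated subunit. It stood at 244, 289, 282, 256 and 241 CPM in vehicle replicates 1 to 5 and at 343, 312, 246, 343 and 332 CPM in JHU083 replicates 1 to 5. Thus 4 of 5 JHU083 samples lay above every vehicle sample, and replicate 3 lay among the vehicle values. The means were 263 ± 22.1 and 315 ± 40.9 CPM (SD, n = 5), and the log2 fold change was 0.26 ± 0.09 (SE, edgeR adjusted p = 0.0421). The call was fragile: it was kept in 3 of 10 fits that each left out 1 sample (without vehicle replicate 2, vehicle replicate 3 or JHU083 replicate 3, the last giving 0.34 with an adjusted p of 0.0016) and lost in the other 7, with adjusted p up to 0.103. With library-size scaling in place of TMM it was 0.18 and not called (edgeR adjusted p = 0.186). GENCODE M21 places exons of Gm15283 (antisense) and Gm49321 (same strand) over those of Hif1a, and the protocol states no strand marking, so their fragments cannot be told apart from its own. The same holds for the antisense genes Gm45507 over Bnip3, Gm17035 and Gm2895 over Ndrg1, and Gm47112 over Higd1a.

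Egln1 and Egln3 encode prolyl hydroxylases that act on HIF and are themselves HIF targets. Egln1 (XLOC_040581, chromosome 8, 124908587 to 124949324, minus strand) stood at 89.4, 92.0, 84.7, 91.2 and 85.9 CPM in vehicle and at 76.1, 63.0, 83.5, 80.2 and 85.9 CPM in JHU083. In JHU083 4 of 5 samples lay below every vehicle sample, and replicate 5 lay among them. The log2 fold change of -0.19 ± 0.08 (SE) missed the threshold (edgeR adjusted p = 0.0926), but passed it with library-size scaling, at -0.27 (edgeR adjusted p = 0.0184). It was also called without JHU083 replicate 3, at -0.21, where its adjusted p of 0.05 was below the threshold before rounding, and by voom with sample quality weights. Egln3 (XLOC_008617, chromosome 12, 54178981 to 54203860, minus strand) spread widely in both groups, with 26.4, 40.9, 43.1, 39.5 and 26.0 CPM in vehicle and 25.2, 23.7, 26.1, 33.8 and 36.1 CPM in JHU083. Its log2 fold change was -0.28 ± 0.16 (SE, edgeR adjusted p = 0.195), and the groups overlapped, with 2 JHU083 samples below every vehicle sample. Egln2, the third member of the family, was at 61.0 ± 3.03 and 66.5 ± 8.09 CPM (SD, n = 5) with a log2 fold change of 0.12 (edgeR adjusted p = 0.278).

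Of the other HIF subunits and oxygen-sensing genes, 13 of 15 could be tested, and their median log2 fold change was 0.14. Of the 13, 1 was higher and 1 lower, where 18.4% and 18.3% of all tested loci were. The gene that rose was Epas1, which encodes HIF-2 alpha, the other main oxygen-regulated subunit. Epas1 went from 28.1 ± 7.31 to 46.8 ± 10.8 CPM (SD, n = 5), and the log2 fold change was 0.74 ± 0.18 (SE, edgeR adjusted p = 0.00688), with overlapping groups. The gene that fell was Tceb2, elongin B of the VHL ubiquitin ligase, from 105 ± 9.44 to 77.0 ± 10.3 CPM (SD, n = 5), and the log2 fold change was -0.45 ± 0.10 (SE, edgeR adjusted p = 0.00263). Arnt, Vhl, which binds the hydroxylated alpha subunit, and Hif1an, the asparaginyl hydroxylase of HIF, had log2 fold changes of 0.15, 0.17 and 0.03 and were not called. Hif3a had at most 2 fragments in any library. With library-size scaling 1 gene was higher and 3 were lower.

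Of the secreted signals, Vegfa, the main angiogenic growth factor, was not called and had a wider spread in JHU083. Vegfa (XLOC_016262, chromosome 17, 46016993 to 46032369, minus strand) stood at 254, 281, 275, 281 and 274 CPM in vehicle. In JHU083 it stood at 310, 189, 206, 300 and 345 CPM, so 3 samples lay above every vehicle sample and 2 below every one. The means were 273 ± 10.8 and 270 ± 68.4 CPM (SD, n = 5), and the edgeR adjusted p of the difference was 0.937. The coefficient of variation was 3.96% in vehicle and 25.4% in JHU083, a ratio of 6.40 that 0.312% of tested loci reached; this comparison of spreads was chosen after the values were seen and was not tested. A larger coefficient of variation in JHU083 was common, in 9 of the 10 genes and in 65.6% of tested loci. Leaving out each sample in turn moved the log2 fold change of Vegfa between -0.12 and 0.09, so its sign was not fixed. Vehicle replicate 1 was the lowest of its group, and without it the log2 fold change was -0.04 (edgeR adjusted p = 0.862).

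Adm, which encodes the vasodilator peptide adrenomedullin, was low (XLOC_035468, chromosome 7, 110627661 to 110629820, plus strand). It stood at 4.62, 8.76, 9.66, 9.12 and 8.45 CPM in vehicle and 3.41, 5.83, 8.42, 6.19 and 7.53 CPM in JHU083. Vehicle replicate 1 lay far below its group, and 1 JHU083 sample lay below it. The log2 fold change was -0.37 ± 0.23 (SE, edgeR adjusted p = 0.229), and without vehicle replicate 1 it was -0.52 (edgeR adjusted p = 0.0737).

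Around these ligands, 11 other VEGF and adrenomedullin ligands and receptors were tested, with a median log2 fold change of -0.01. Of the 11, 3 were higher and 2 lower, where 18.4% and 18.3% of all tested loci were. Calcrl, the adrenomedullin receptor, and Ramp1, a partner that directs Calcrl towards calcitonin gene-related peptide, rose: Calcrl from 5.69 ± 1.10 to 9.91 ± 2.22 CPM (SD, n = 5, edgeR adjusted p = 0.00442) and Ramp1 from 3.91 ± 0.892 to 12.2 ± 3.35 CPM (SD, n = 5, edgeR adjusted p = 6.84e-05). Ramp3, a partner that makes Calcrl an adrenomedullin receptor, had a log2 fold change of 0.75 and was not called (edgeR adjusted p = 0.0574), and the locus of Ramp2 also holds Vps25, so it gives no value for Ramp2. Nrp1, a co-receptor for VEGF, rose from 82.7 ± 16.7 to 157 ± 34.1 CPM (SD, n = 5, edgeR adjusted p = 0.000432). The VEGF relatives Pgf and Vegfc fell, Pgf from 52.3 ± 7.42 to 28.7 ± 6.19 CPM (SD, n = 5, edgeR adjusted p = 0.000403) and Vegfc, which had at most 27 fragments in a library, with a log2 fold change of -1.16 ± 0.41 (SE, edgeR adjusted p = 0.039).

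The mitochondrial genes Bnip3 and Higd1a differed in their calls. Higd1a (XLOC_042719, chromosome 9, 121848563 to 121858362, minus strand) encodes an inner-membrane protein that associates with the respiratory chain. It stood at 42.9, 34.9, 35.2, 36.4 and 40.6 CPM in vehicle and at 26.0, 21.2, 31.2, 26.5 and 30.0 CPM in JHU083. Every JHU083 sample lay below every vehicle sample. The means were 38.0 ± 3.57 and 27.0 ± 3.94 CPM (SD, n = 5), and the log2 fold change was -0.50 ± 0.11 (SE, edgeR adjusted p = 0.00279), and the call held in all 10 fits that left out 1 sample. Higd2a, its tested relative, was not called, with a log2 fold change of 0.09.

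Bnip3 (XLOC_038217, chromosome 7, 138890836 to 138909519, minus strand) stood at 135, 134, 143, 156 and 153 CPM in vehicle and at 104, 114, 134, 138 and 141 CPM in JHU083. The groups overlapped, with 2 JHU083 samples below every vehicle sample. The log2 fold change of -0.19 ± 0.09 (SE) was not called with TMM (edgeR adjusted p = 0.113) and was called with library-size scaling, at -0.28 (edgeR adjusted p = 0.0204). Its close relative Bnip3l, also a mitophagy receptor, rose from 98.8 ± 3.74 to 122 ± 4.48 CPM (SD, n = 5), and the log2 fold change was 0.30 ± 0.06 (SE, edgeR adjusted p = 0.00213), with every JHU083 sample above every vehicle sample. Over all tested loci 18.4% were higher and 18.3% lower. Of the mitophagy genes, 14 could be tested, 8 were higher, Bnip3l included, and 1 lower, with a median log2 fold change of 0.27. Among these, Pink1, the kinase that marks damaged mitochondria, rose from 44.5 ± 1.48 to 67.3 ± 10.5 CPM (SD, n = 5, edgeR adjusted p = 0.000386) and Gabarapl1, an autophagosome protein, from 57.8 ± 4.98 to 84.1 ± 8.30 CPM (SD, n = 5, edgeR adjusted p = 0.000362). Nbr1 and Tbk1, an autophagy receptor and a kinase of such receptors, rose by 0.46 and 0.41 on the log2 scale, and Phb2, an inner-membrane prohibitin, fell by 0.34.

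Ndrg1, like Higd1a, fell without overlap between the groups. Ndrg1 (XLOC_013317, chromosome 15, 66929318 to 66969640, minus strand) encodes a cytoplasmic protein induced by hypoxia, metal and differentiation signals. It stood at 296, 298, 321, 334 and 341 CPM in vehicle and at 227, 203, 214, 240 and 289 CPM in JHU083, with JHU083 replicate 5 nearest to vehicle. The means were 318 ± 20.3 and 235 ± 33.4 CPM (SD, n = 5), and the log2 fold change was -0.44 ± 0.09 (SE, edgeR adjusted p = 0.00215), and the call held in all 10 fits that left out 1 sample. Its relative Ndrg3 had a log2 fold change of 0.01 and was not called.

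Ankrd37, a small ankyrin-repeat gene and HIF target, fell at the limit of the test (XLOC_039931, chromosome 8, 45996902 to 46005707, minus strand). It stood at 16.1, 9.68, 11.2, 13.6 and 14.7 CPM in vehicle and at 7.02, 8.91, 12.3, 9.94 and 10.1 CPM in JHU083. The groups overlapped, with 2 JHU083 samples below every vehicle sample. The log2 fold change was -0.44 ± 0.16 (SE, edgeR adjusted p = 0.0499), and the call was kept without vehicle replicate 2, vehicle replicate 3 or JHU083 replicate 3 and lost in the other 7 such fits, with adjusted p up to 0.137. Exons of Ufsp2 and Lrp2bp overlap those of Ankrd37 on the other strand, so some of its fragments may be theirs.

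Kdm3a rose most. Kdm3a (XLOC_032951, chromosome 6, 71588972 to 71632990, minus strand) encodes a JmjC histone demethylase, an enzyme that needs oxygen and is itself induced by HIF. It stood at 38.0, 44.1, 52.3, 52.4 and 42.8 CPM in vehicle and at 64.1, 69.0, 47.0, 67.1 and 65.1 CPM in JHU083. As for Hif1a, 4 JHU083 samples lay above every vehicle sample and replicate 3 lay among them. The means were 45.9 ± 6.28 and 62.5 ± 8.83 CPM (SD, n = 5), and the log2 fold change was 0.45 ± 0.12 (SE, edgeR adjusted p = 0.00878), and the call held in all 10 fits that left out 1 sample, with 0.53 without JHU083 replicate 3. Of 16 other JmjC demethylases tested, 3 were higher and 0 lower by edgeR, where 18.4% and 18.3% of all tested loci were. At an unadjusted p under 0.05, by DESeq2 and by voom 0 were lower too. Those called higher by edgeR were Jmjd1c, a relative of Kdm3a, which changed on the log2 scale by 0.80 ± 0.22 (SE, adjusted p = 0.011), Kdm6a with 0.54 ± 0.13 (SE, adjusted p = 0.00552) and Kdm4c with 0.30 ± 0.08 (SE, adjusted p = 0.00953). Kdm3b, another relative, had 0.18 and was not called. Over the family relatives of the 10 genes, 7 could be tested. Of these, 3 were higher (Bnip3l, Jmjd1c and Epas1) and 0 lower by edgeR, where 18.4% and 18.3% of all tested loci were. At an unadjusted p under 0.05, by DESeq2 and by voom 0 relatives were lower too.

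**Figure D3:**
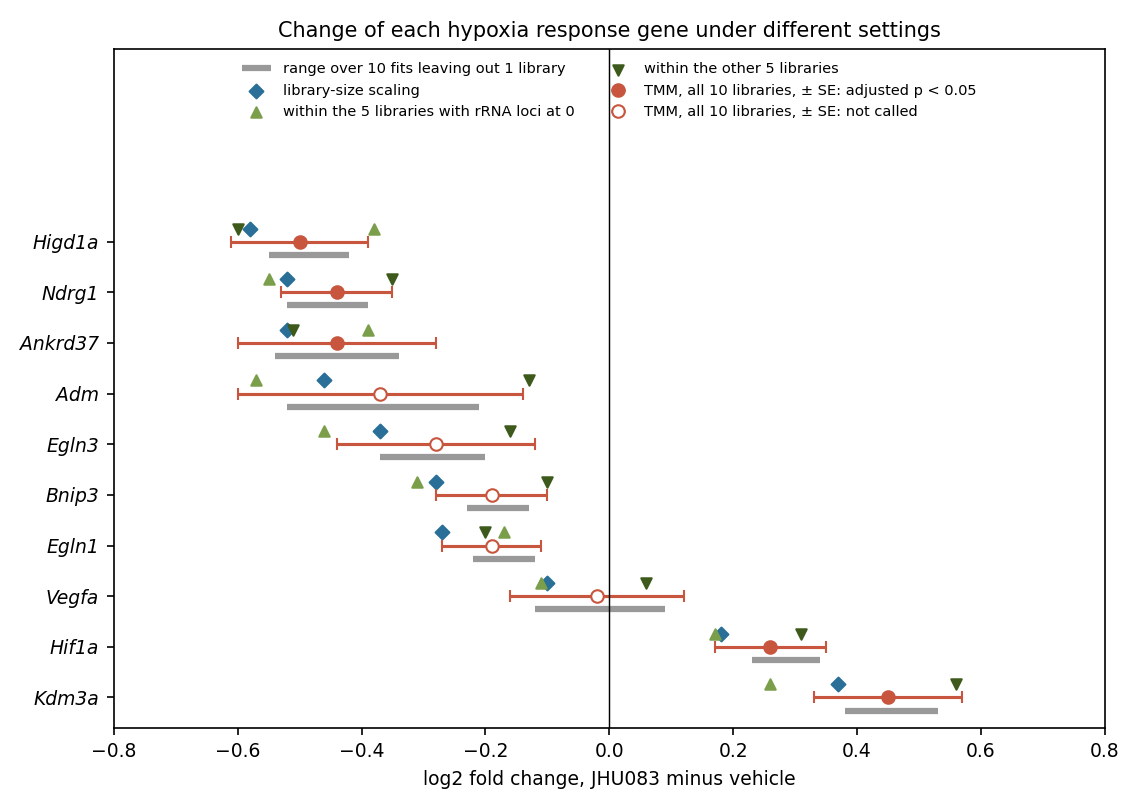
Log2 fold change (JHU083 minus vehicle) of each gene with its SE (red; filled where the edgeR adjusted p was under 0.05), the range over the 10 fits that left out 1 library (grey bar), library-size scaling (blue) and the fits within the 5 libraries with Rn18s-rs5 at 0 and within the other 5 (green). Vegfa alone crosses 0, and library-size scaling shifts every gene downwards.

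The split of the libraries by Rn18s-rs5, whose origin is not known, was followed within its sets. Among the 5 libraries listed at 0, and among the other 5, the log2 fold changes were -0.38 and -0.60 for Higd1a, -0.55 and -0.35 for Ndrg1, -0.39 and -0.51 for Ankrd37, 0.17 and 0.31 for Hif1a and 0.26 and 0.56 for Kdm3a, the same signs as over all libraries. With 2 or 3 samples a group, only Ndrg1 was called in the first set (edgeR adjusted p = 0.0207), where 4.61% of loci were lower and 4.18% higher, and Higd1a and Kdm3a in the other (edgeR adjusted p = 0.0215 and 0.0196), where 11.9% of loci were lower and 9.86% higher.

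Beyond the 10 genes, other HIF targets outside glycolysis were also split. Of 32 tested, 8 were higher and 12 lower, where 18.4% and 18.3% of all tested loci were, with a median log2 fold change of -0.05. Among the increases, Cxcr4, a chemokine receptor, went from 202 ± 25.7 to 374 ± 41.3 CPM (SD, n = 5, edgeR adjusted p = 1.83e-05). Bhlhe41, a transcriptional repressor, rose by 0.88 ± 0.16 on the log2 scale (SE, edgeR adjusted p = 0.000666), and Plin2, a lipid droplet coat protein, went from 427 ± 40.7 to 713 ± 82.1 CPM (SD, n = 5, edgeR adjusted p = 4.54e-05). Among the decreases, Mif, a cytokine, went from 422 ± 52.9 to 229 ± 36.4 CPM (SD, n = 5, edgeR adjusted p = 6.64e-05). Cox4i2, the hypoxic subunit of cytochrome oxidase, Car12, a carbonic anhydrase, and Plod2, a collagen lysyl hydroxylase, fell, with log2 fold changes of -1.92, -1.29 and -1.26, from 5.76, 2.89 and 5.33 CPM in vehicle. The tumour epithelial and fibroblast sums given above were lower in the same samples, and their part was not tested.

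The glycolytic HIF targets were mostly lower. Of 16 tested, 0 were higher and 14 lower by edgeR, where 18.4% and 18.3% of all tested loci were. At an unadjusted p under 0.05, by DESeq2 and by voom 0 were higher too, and the median log2 fold change was -0.61. Ldha, the lactate-forming dehydrogenase, went from 1660 ± 196 to 950 ± 161 CPM (SD, n = 5, edgeR adjusted p = 0.000236), and Slc16a3, the lactate exporter, from 222 ± 12.7 to 123 ± 15.9 CPM (SD, n = 5, edgeR adjusted p = 1.46e-05). Their difference from the 10 genes was not tested as a set.

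**Figure D4:**
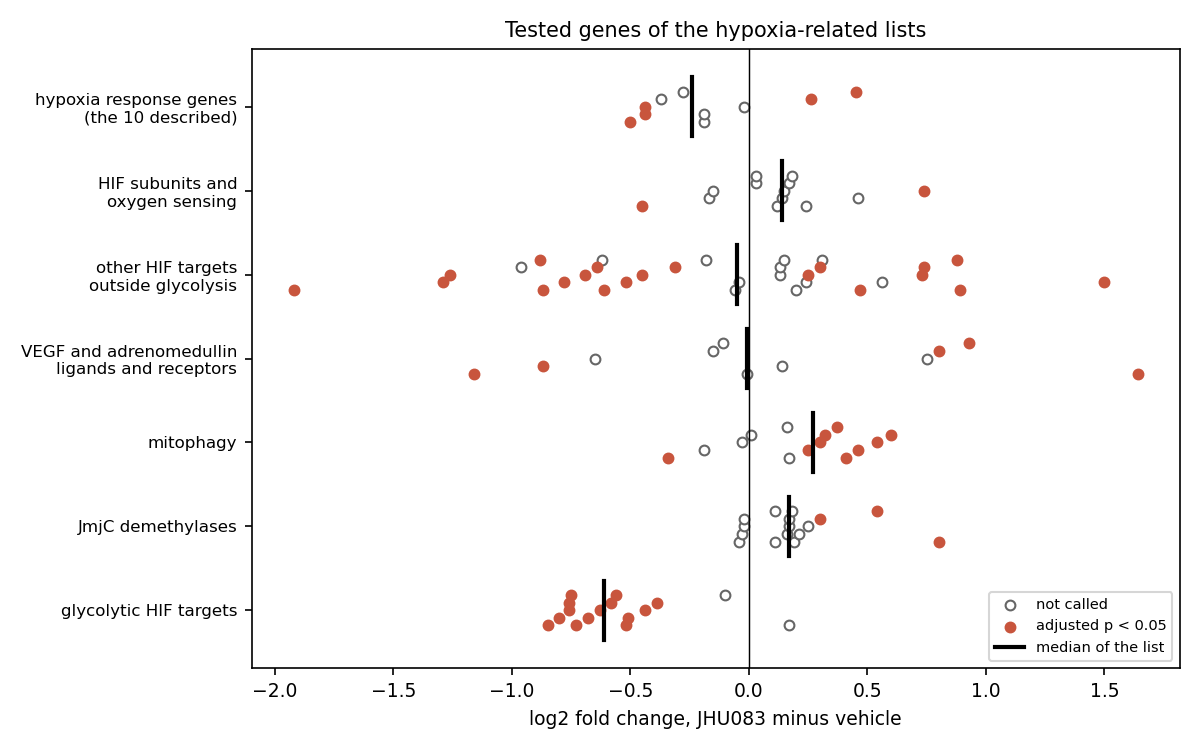
Log2 fold change (JHU083 minus vehicle) of every tested gene in the 10 genes and in 6 related lists, filled where the edgeR adjusted p was under 0.05, with the list median as a black bar. The glycolytic targets lie left with a median of -0.61, and the other HIF targets extend to both sides.

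Within groups the genes varied along more than 1 pattern. After subtracting group means, 15 of the 45 pairs had a Pearson r over 0.5 across the 10 samples and 4 had r under -0.5, with a median of 0.31. The samples share library depth and the scaling, and these values are descriptions. The share over pairs of other genes was not computed, so the counts cannot be read as a trait of the 10 genes. Vegfa and Ndrg1 had the highest r, 0.79 (Spearman rho 0.66), and 0.75 without JHU083 replicates 2 and 3, the samples farthest from the median of Vegfa. Hif1a and Ankrd37 had the lowest, -0.78 (rho -0.84), and -0.74 without JHU083 replicate 3 and vehicle replicate 5. Hif1a and Kdm3a had r = 0.75 (rho 0.39), which rested on JHU083 replicate 3, since without it r was 0.36. Without the same sample r went from -0.53 to -0.25 for Hif1a and Higd1a, from -0.54 to -0.30 for Ankrd37 and Kdm3a and from -0.70 to -0.58 for Higd1a and Kdm3a, while for Hif1a and Ankrd37 it was -0.76. Higd1a and Ankrd37 had r = 0.67 (rho 0.81).

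**Figure D5:**
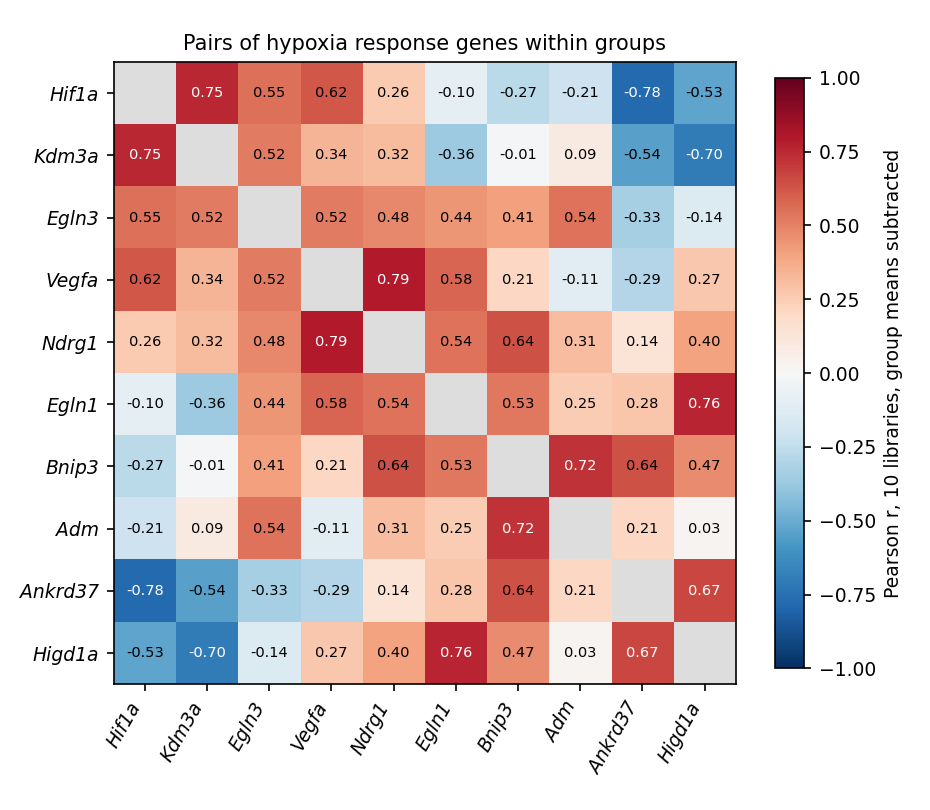
Pearson r between pairs of the 10 genes over 10 libraries, after subtracting each group's mean log2 CPM (red positive, blue negative; the diagonal is left blank). Over all 10 libraries Hif1a and Kdm3a are positive together and negative with Ankrd37 and Higd1a, a pattern that is weaker without JHU083 replicate 3 except between Hif1a and Ankrd37.

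The summed tumour epithelial markers had r = 0.76 with Hif1a, 0.60 with Kdm3a, -0.62 with Ankrd37 and -0.69 with Higd1a within groups, and -0.20 with Ndrg1 and 0.13 with Vegfa. For the fibroblast sum the values were 0.87, 0.68, -0.78, -0.70, -0.02 and 0.31 in the same order. Both sums were lowest in JHU083 replicate 3. Without that sample r was 0.72 with the epithelial and 0.56 with the fibroblast sum for Hif1a, and 0.39 and 0.15 for Kdm3a, so the relation of Kdm3a rested on it. For Ankrd37 the values without it were -0.49 and -0.78, for Higd1a -0.58 and -0.61, for Ndrg1 -0.44 and -0.57 and for Vegfa -0.16 and -0.27. The part of these cells in the changes was not tested. Egln3 varied with several sums, with r = 0.89 for endothelial, 0.84 for eosinophil, 0.77 for dendritic and 0.57 for epithelial markers, and -0.86 for the summed cell cycle genes, of which 14 of 16 fell. Adm had r = 0.77 with the endothelial, 0.55 with the eosinophil and -0.76 with the cell cycle sum, and Bnip3 had 0.64, 0.52 and -0.63. Kdm3a had 0.47, 0.40 and -0.60 in the same order, or 0.69, 0.49 and -0.76 without JHU083 replicate 3. Hif1a had r = 0.70 with the dendritic sum, or 0.83 without JHU083 replicate 3. Bnip3 had -0.56 with the fibroblast sum, or -0.68 without that sample. The largest parts of the endothelial, eosinophil and dendritic sums were Pecam1, Ear2 and Fscn1, so r with these sums may follow 1 gene rather than a cell type.

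The loci most like Hif1a within groups, among 10126 with an average log2 CPM of at least 2, were Slc38a2, Ssfa2 and Zfp946, each with r = 0.98 over the 10 samples. Slc38a2, a glutamine transporter, had a log2 fold change of 0.13 and was not called (edgeR adjusted p = 0.466). Ssfa2 and Zfp946 were higher, with log2 fold changes of 0.36 and 0.69 (edgeR adjusted p = 0.042 and 0.0122). The loci most like Vegfa were Kyat1, an enzyme that transaminates glutamine, with r = 0.99, H2-Q6 with 0.96 and Lemd3 with 0.94. Kyat1 rose by 0.51 on the log2 scale (edgeR adjusted p = 0.0115), and H2-Q6 and Lemd3 were not called. The fragments of H2-Q6 are uncertain because its class I relatives are near-identical. These loci were picked as the highest r of many, and r was not computed without JHU083 replicate 3 or other samples far from their group.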

How the data were processed

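Polyadenylated RNA was made into paired-end Illumina libraries with the NEBNext Ultra kit, per the labels' protocols. bcl2fastq 2.17.1.14, FastQC 0.11.2, TopHat2 2.1.1 and GRCm38 are named in the submitters' processing notes; the counting program is not given in the sources used here. The authors deposited, per the file headers, raw counts that are not whole numbers, a kind of estimated count. Their values are multiples of a step of 0.888 to 1.17 per sample. Division by it gave whole numbers, within 0.05, for 99.783% to 99.956% of positive values in each sample, and these fragment counts were used. The other deposited column, headed as normalized, was taken from its values as FPKM, and served only to compare levels between genes. 1 locus with no symbol, at most 0.0021% of fragments, was left out.

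Loci were filtered with filterByExpr, scaled with TMM and tested with the quasi-likelihood test of edgeR 4.0.16 (R 4.3.3), JHU083 against vehicle, no covariate, with Benjamini-Hochberg adjustment over 12500 loci at 0.05. SE is the absolute log2 fold change divided by the square root of F. On counts simulated for this comparison over 12500 loci, 200 of them changed by 1 on the log2 scale, edgeR recovered 84.5% with 5.1% false calls. DESeq2 1.42.0 and voom (limma 3.58.1) with sample weights were alternatives, with the scalings, filters and left-out samples given in the closing section. Gene positions are from GENCODE M21. Loci that list another protein-coding gene were left out of list counts.

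The genes, lists and tests were chosen with earlier results of these data known. Named are the 10 genes in full, up to 4 called genes in each direction per list with an average log2 CPM of at least 0, the tested relatives, and the 3 loci most like Hif1a and Vegfa; other names were chosen after their values were seen. A gene that this rule names is not reported here.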

Additional observations from a re-analysis of the deposited data

Results flagged for a closer look

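In 4 of 20 groups of 5 values (10 genes, both treatments), 1 sample lay far from the others by Dixon's test, where chance alone would give about 1. JHU083 replicate 3 was low for Hif1a, with a log2 CPM of 7.94 where the remaining JHU083 samples spanned 8.29 to 8.42, and for Kdm3a, at 5.56 against 6.01 to 6.11. Vehicle replicate 1 was low for Vegfa, at 7.99 against 8.10 to 8.13, and for Adm, at 2.25 against 3.10 to 3.29. The changes without these samples stand beside each gene above.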

How the results depend on the processing

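Ndrg1, Higd1a and Kdm3a kept direction and call in all 11 other fits of the 10 samples and in the 10 fits that left out 1 sample. Hif1a lost its call in 3 of the 11 and Ankrd37 in 2. With library-size scaling, which shifted the median log2 fold change by -0.08, 1 of the 10 genes was higher and 5 lower, 3 oxygen-sensing genes were lower, and 1564 loci were higher and 3141 lower in all. With the status at Rn18s-rs5 as a covariate 1 of the 10 genes was higher and 2 lower, and over all 12500 loci 2101 and 2170. DESeq2 and the fit without a filter each called 2 oxygen-sensing genes higher, with 2379 and 2217 loci higher in all. Voom with weights called 5 of 13 higher, and 2942 of all 12500 loci. Leaving out 1 sample gave 1 to 2 of the 10 genes higher and 2 to 4 lower, 1 to 3 oxygen-sensing genes higher and 1 to 3 lower, 7 to 10 other HIF targets higher and 9 to 13 lower, and 1821 to 2899 loci higher and 1900 to 2930 lower, the highest without JHU083 replicate 3. Vegfa changed sign with voom (0.06), in the libraries not at 0 for Rn18s-rs5 (0.06) and with 1 sample left out (-0.12 to 0.09). With the replicate block 1 of the 10 genes was higher and 2 lower, and over all loci 1612 and 1757; Hif1a (edgeR adjusted p = 0.108) and Ankrd37 (0.0992) lost their calls. Same-numbered samples had correlations of -0.61 to -0.18, so the numbers do not pair them. The causes were not tested. Genes under about 0.269 CPM (3 fragments in the shallowest library) cannot be compared at this depth.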
